A study of Rattus norvegicus with 5 samples.

Results

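The genes of iron and haem handling described here were chosen by name: Hamp, Hmox1, Tfrc, Tf, Slc40a1, Fth1, Hpx, Hp and Cp. They were chosen with earlier results of these data known. Their transcript levels were followed in rat liver. Of these 9, 6 were measured by a probe set that the platform annotation gives to them alone (Hamp, Hmox1, Slc40a1, Hpx, Hp and Cp), out of 7589 genes measured in that way. Tf lay on 1 probe set shared with Srprb, a subunit of the signal recognition particle receptor, and is described apart. No named probe set for Tfrc or Fth1 was found in the annotation used here, so neither is analysed.

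The arrays compared 2 strains of 4-month-old male rats fed standard chow. PD, the polydactylous rat, is the progenitor. PD.SHR4, which the series text calls PD.SHR4a, is a congenic strain with a piece of chromosome 4 from SHR, the spontaneously hypertensive rat, on the PD background, and the series title describes such strains as Cd36-deficient. RNA was taken from 8 rats per strain and the labelled cDNA of a strain was pooled, then hybridised to 3 PD and 2 PD.SHR4 Affymetrix Rat Exon 1.0 ST arrays. Nothing in the labels says that arrays of a strain held different rats, so every p-value reflects how arrays of a strain vary, possibly only for technical reasons, and says nothing of variation between animals. The RefSeq gene table of assembly GRCr8 places none of the 6 measured genes on chromosome 4. Among the other genes named below, it places Il6, A2m, Abcg2, Clec4f, Klrk1, Cd8a, Cd8b, Cd4 and Anxa4 there. Whether these lie in the SHR piece, or whether that piece bears on their values, was not tested.

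Iron in the body is controlled by hepcidin, the peptide hormone encoded by Hamp. Hepatocytes secrete it, and it binds ferroportin, the cellular iron exporter encoded by Slc40a1, and sends it for degradation. Liver Hamp transcription is driven by iron through BMP signals and SMAD proteins, and by inflammation through interleukin 6 and STAT3. Haem from old red cells is broken down by haem oxygenase 1, the product of Hmox1, mainly in macrophages, which in the liver are the Kupffer cells. Free haemoglobin and haem are captured in plasma by haptoglobin (Hp) and hemopexin (Hpx). Ceruloplasmin (Cp) oxidises exported iron so that transferrin (Tf) can carry it to cells bearing the transferrin receptor (Tfrc), and ferritin (heavy chain, Fth1) stores it inside cells.

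The upstream sequence of Hamp is shown because Hamp had the largest strain difference of the 6 measured genes and because the elements that BMP and STAT3 signals use are known in this promoter in humans and mice. The 250 bases before the annotated start, from RefSeq (GRCr8, chr1:95300272-95300521, minus strand), hold both motifs, given here in capitals. The first capital block matches the BMP response element GGCGCC and the second the STAT pattern TTCNNNGAA.

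Hamp, 250 bases upstream: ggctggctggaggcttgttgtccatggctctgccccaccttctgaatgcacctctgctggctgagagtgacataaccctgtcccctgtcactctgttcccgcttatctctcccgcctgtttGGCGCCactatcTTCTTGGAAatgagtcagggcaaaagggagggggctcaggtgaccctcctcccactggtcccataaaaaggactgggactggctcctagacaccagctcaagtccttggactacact

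Counted back from the base before the start, the GGCGCC block covered positions -129 to -124 and the STAT match positions -117 to -109, with 6 bases between them. Both strands were searched in the promoter windows of the 6 named genes that the table lists (Hamp, Hpx, Cp, Tf, Slc40a1 and Tfrc). GGCGCC was found in Hamp and Tfrc, and in 8.69% of all 33469 windows of the same length. TTCNNNGAA was found in Hamp alone of the 6, and in 7.67% of all windows. Hamp was one of 127 windows (0.379%) with both. Of the other 2 motifs searched, the antioxidant response element TGACNNNGC was found in Hpx, on the reverse strand at -99 to -91, and in 10.1% of all windows, while the E-box CACGTG was in none of the 6 and in 5.59% of all windows. A match says only that these letters are present, and the motifs do not overlap in these windows.

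Levels are log2 values as the authors deposited them, computed by RMA, which makes arrays comparable for one probe set but does not rank different probe sets. Array medians lay between 5.21 and 5.38. Over all 8797 probe sets, limma (moderated linear model, adjusted p under 0.05 by Benjamini-Hochberg over the whole table) found 58 lower and 24 higher in PD.SHR4, which is 0.932% in either direction, 0.659% lower and 0.273% higher. At an unadjusted p under 0.05 there were 13.8%, the share to set beside each list's count below. After each array was centred on its median the split was 59 lower and 41 higher. Arrays of the 2 strains did not overlap at all in 31.9% of probe sets, and lay wholly lower in PD.SHR4 in 17.1%. The median difference over all probe sets was 0.0002.

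Hamp and Hmox1 were lower in the livers of PD.SHR4 rats, and no member was called higher. These 2 of 6 measured genes passed the test, both in the lower direction, against 0.932% of all probe sets in either direction. The 6 differences had a median of -0.21 on the log2 scale and ran from -1.30 to 0.087. In 5 of the 6 genes both PD.SHR4 arrays lay below all 3 PD arrays, against 17.1% of all probe sets, and only in Slc40a1 did the strains overlap. Since the members were chosen with earlier results of these data known, these counts are descriptions and not independent evidence of an excess.

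In PD, Hamp measured 11.80, 11.64 and 11.73, and in PD.SHR4 10.62 and 10.23. Both congenic arrays were thus below every PD array, by at least 1.02 on the log2 scale, while the PD arrays spanned 0.166 and the congenic arrays 0.392. The mean fell from 11.72 ± 0.083 (SD, n = 3) to 10.42 ± 0.28 (SD, n = 2). The difference of -1.30 ± 0.16 (SE) is a 2.46-fold lower level, with a 95% interval of 1.88-fold to 3.21-fold (limma, adjusted p = 0.0392). The 2 congenic arrays disagreed on its size: the difference was -1.10 without PD.SHR4 array 2 and -1.49 without PD.SHR4 array 1. The call was lost whichever of the 5 arrays was left out, with adjusted p (limma) of 0.0884, 0.0593 and 0.126 without PD array 1, 2 or 3 and 0.185 and 0.329 without PD.SHR4 array 1 or 2. With no variance shrinkage the adjusted p was 0.202.

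Hmox1 encodes the inducible enzyme that opens the haem ring and releases iron, biliverdin and carbon monoxide. In PD it measured 7.80, 7.57 and 7.86, and in PD.SHR4 6.82 and 6.74. The strains were 0.750 apart at their nearest arrays, and the spread lay mostly in PD, where array 2 was lowest. The mean fell from 7.74 ± 0.16 (SD, n = 3) to 6.78 ± 0.057 (SD, n = 2), a difference of -0.97 ± 0.14 (SE). This is a 1.95-fold lower level, with a 95% interval of 1.55-fold to 2.47-fold (limma, adjusted p = 0.0489). The p lay close to the threshold. It was 0.104 without PD array 1, 0.0492 without PD array 2, 0.168 without PD array 3, and 0.312 or 0.378 without PD.SHR4 array 1 or 2 (limma, adjusted). It was also above the threshold after median centring (-0.91, adjusted p = 0.0747), after a second quantile normalisation (-0.91, adjusted p = 0.0888), with the replicate number as a block (-0.90, adjusted p = 0.0619) and with no variance shrinkage (adjusted p = 0.202).

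**Figure D1:**
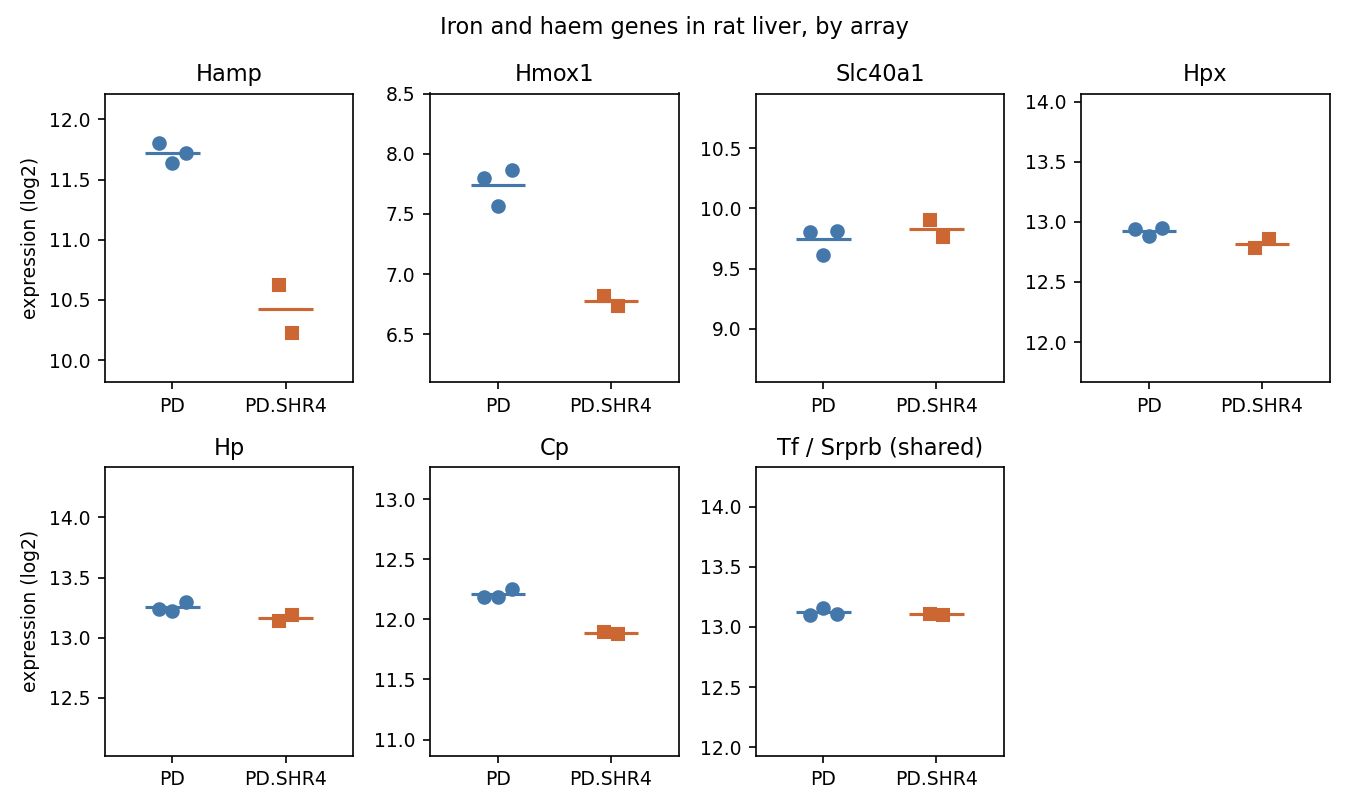
Expression (log2, RMA) of the 6 measured iron and haem genes, and of the probe set shared by Tf and Srprb, in each array; circles are the 3 PD arrays, squares the 2 PD.SHR4 arrays, lines the strain means. Every panel spans the same range, so the gap in Hamp (2.46-fold) and Hmox1 (1.95-fold) can be read against the small ones in Hpx, Hp and Cp.

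Slc40a1 encodes ferroportin, the target of hepcidin. It measured 9.80, 9.61 and 9.82 in PD and 9.90 and 9.76 in PD.SHR4. The strains overlapped, with PD.SHR4 array 2 below PD arrays 1 and 3. The difference was 0.087 ± 0.13 (SE), with a 95% interval of -0.23 to 0.40 on the log2 scale (limma, adjusted p = 0.852). In folds the interval runs from 1.17-fold lower to 1.32-fold higher. The value was above 0 in all 12 alternative fits, between 0.016 and 0.16, though fits that change only the shrinkage must repeat it.

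The plasma proteins that bind haem and haemoglobin differed little. Hpx, the haem scavenger, measured 12.94, 12.88 and 12.95 in PD and 12.78 and 12.86 in PD.SHR4, with 0.025 between the nearest arrays of the strains. Its difference was -0.11 ± 0.11 (SE; 95% interval -0.38 to 0.17; limma, adjusted p = 0.777). Hp, the haemoglobin scavenger, measured 13.24, 13.22 and 13.30 in PD and 13.14 and 13.19 in PD.SHR4. Its difference was -0.090 ± 0.11 (SE; 95% interval -0.36 to 0.18; limma, adjusted p = 0.816). The 5 arrays did not overlap between strains in either gene, although both differences were smaller than their SE. Both probe sets lay near the top of the scale, where the highest value of any probe set was 13.24 to 13.36 by array.

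Cp, the copper-carrying ferroxidase of plasma, was intermediate in size. It measured 12.18, 12.19 and 12.25 in PD and 11.90 and 11.88 in PD.SHR4, lower in both congenic arrays. The arrays of each strain lay within 0.067 of each other in PD and 0.014 in PD.SHR4, and the gap between strains was 0.289. The difference was -0.32 ± 0.11 (SE), a level 19.8% lower. It did not pass over the whole table (limma, adjusted p = 0.272), except with array weights (-0.35, adjusted p = 0.0473). Its interval, -0.59 to -0.050, did not meet that of Hamp, -1.68 to -0.91.

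The probe set shared by Tf, the iron carrier of plasma, and Srprb measured 13.10, 13.16 and 13.11 in PD and 13.11 and 13.10 in PD.SHR4. The strains overlapped, with a difference of -0.017 ± 0.11 (SE; 95% interval -0.28 to 0.25; limma, adjusted p = 0.970). It cannot be read as Tf alone.

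**Figure D2:**
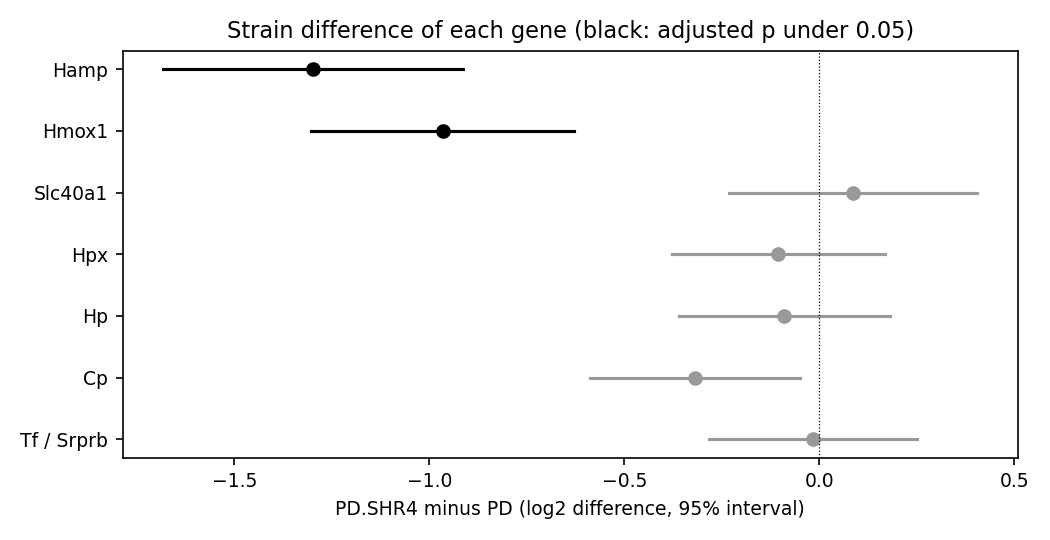
Log2 difference (PD.SHR4 minus PD) of each gene with its 95% interval from the limma fit; black marks adjusted p under 0.05. Hamp (-1.30) and Hmox1 (-0.97) lie furthest from 0, Cp (-0.32) follows, and the intervals of Slc40a1, Hpx, Hp and the Tf and Srprb probe set include 0.

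The signals known to set hepcidin were measured only in part, through 21 genes. Tmprss6, Tfr2, Neo1, Smad6, Bmpr2, Acvr2a, Erfe and Atoh8 were also sought, but none had a probe set of its own here. None of the 21 passed the test (limma), 2 had an unadjusted p under 0.05, against 13.8% of all probe sets, and the median difference was 0.051. On the iron-sensing side, Smad7, an inhibitor that BMP signals induce in liver, measured -0.37 ± 0.16 (SE; adjusted p = 0.375, limma). The following were chosen after their values were seen. Bmp6, the ligand that reports iron stores, measured -0.14 ± 0.12, Bmp2 0.11 ± 0.25, the BMP co-receptor gene Hjv 0.12 ± 0.23, the haemochromatosis gene Hfe -0.34 ± 0.21, and the BMP targets Id1 and Id3 -0.11 ± 0.21 and -0.28 ± 0.14 (each SE). All 6 intervals include 0, although both congenic arrays lay below all PD arrays in Id3.

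On the inflammatory side, Il6r, the interleukin 6 receptor, measured 0.33 ± 0.11 (SE; adjusted p = 0.259, limma). Creb3l3 encodes the liver stress factor CREBH, which can activate the hepcidin promoter in mice. It measured 10.03, 9.73 and 10.05 in PD and 10.48 and 10.55 in PD.SHR4. The difference was 0.58 ± 0.14 (SE; adjusted p = 0.161, limma), and its bearing on Hamp was not tested. Furin, a protease that matures hepcidin, measured 0.28 ± 0.12 (SE; adjusted p = 0.405). Stat3 measured 0.25 ± 0.17, the STAT3 target and feedback inhibitor Socs3 0.093 ± 0.25, and Il6 itself -0.21 ± 0.16, from values of 1.30 to 1.81 in the 5 arrays, below each array's lower quartile (SE; these 3 chosen after their values were seen).

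Of 16 acute phase genes, 1 fell, against 0.659% of all probe sets, and 15 did not pass. Orm1, the plasma glycoprotein orosomucoid, measured 12.55, 12.34 and 12.62 in PD and 11.46 and 11.42 in PD.SHR4, a difference of -1.07 ± 0.13 (SE; adjusted p = 0.0392, limma). Values below 0 were found in 13 of the 16, against 4397 of all 8797 probe sets, with a median of -0.11. Fga, Fgb, Fgg, Itih3, Serpina1 and C3 read 12.62 to 12.96, near the top of the scale (chosen after their values were seen). Lcn2, lipocalin 2, which withholds iron from bacteria by binding their siderophores, measured 5.45, 4.01 and 5.58 in PD and 3.49 and 3.70 in PD.SHR4. Its PD arrays were thus far apart, and the difference of -1.42 ± 0.48 (SE) did not pass (adjusted p = 0.270, limma). The pentraxin Crp measured -0.34 ± 0.13, the inhibitor heavy chain Itih4 -0.23 ± 0.11 and the transcription factor gene Cebpb -0.27 ± 0.14 (SE), all with adjusted p (limma) of 0.317 to 0.473. No acute phase gene passed without PD array 1, without PD array 3 or without either PD.SHR4 array, and 2 passed without PD array 2, Orm1 and Lcn2. Orm1 did not pass after median centring either.

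Genes that move iron within cells and between cells were measured through 11 genes besides the members. None passed (limma), 3 had an unadjusted p under 0.05, against 13.8% of all probe sets, and the median was -0.044. Slc39a8, which imports zinc and iron, measured 8.29, 8.33 and 8.26 in PD and 7.91 and 7.78 in PD.SHR4, a difference of -0.45 ± 0.11 (SE; adjusted p = 0.169, limma). Both congenic arrays were lower. Slc25a37, mitoferrin 1, which brings iron into mitochondria, measured 0.34 ± 0.13 (SE; adjusted p = 0.352). Aco1, the cytosolic aconitase that becomes an iron-regulatory protein when iron is scarce, measured 0.18 ± 0.11 (SE; adjusted p = 0.580), and Lcn2, described above, belongs here too. Without PD array 2, 1 of the 11 passed as lower, namely Lcn2.

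Haem synthesis was measured through 6 genes, with no gene passing (limma), 1 unadjusted p under 0.05 and a median of 0.071. Tspo, the outer mitochondrial membrane protein that binds porphyrins and cholesterol, measured 8.26, 8.43 and 8.37 in PD and 7.59 and 7.59 in PD.SHR4. The congenic arrays were nearly identical and well below PD, a difference of -0.77 ± 0.12 (SE; adjusted p = 0.0572, limma). The enzyme gene Alad, the second step of the pathway, measured 0.29 ± 0.16, and the mitochondrial transporters Abcb6 and Abcb10 0.26 ± 0.18 and 0.19 ± 0.11 (SE; adjusted p 0.517 to 0.614).

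The haem breakdown and transport list, besides Hmox1, held 8 measured genes. None passed (limma), and 1 had an unadjusted p under 0.05, the transcription factor gene Nfe2l2, described below. The median of the 8 was -0.11. Blvra, biliverdin reductase, which acts on the product of haem oxygenase, measured -0.54 ± 0.28 (SE; adjusted p = 0.482). Its arrays overlapped between strains. Hmox2, the constitutive haem oxygenase and chosen after its value was seen, measured 7.69, 7.85 and 8.01 in PD and 7.61 and 7.68 in PD.SHR4, a difference of -0.20 ± 0.14 (SE; adjusted p = 0.619). The haem transporter family gene Flvcr2 measured 0.34 ± 0.15 and Abcg2, an exporter of porphyrins, -0.48 ± 0.32 (SE; adjusted p 0.399 and 0.614). Iron-sulphur cluster assembly held 7 measured genes with a median of 0.041. None passed (limma) and 1 had an unadjusted p under 0.05, the mitochondrial chaperone gene Hspa9 at 0.52 ± 0.21. The ferredoxin gene Fdx1 measured -0.49 ± 0.23, Ciao1 0.23 ± 0.13 and Isca1 0.16 ± 0.12 (SE).

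Hmox1 is a classic target of Nrf2, the oxidative stress factor encoded by Nfe2l2, and 9 other Nrf2 targets were measured. Of these, 1 rose, against 0.273% of all probe sets, and 8 did not pass (limma), with a median of 0.43. At an unadjusted p under 0.05 (limma) there were 6 of the 9, against 13.8% of all probe sets. Whether Nrf2 bears on the Hmox1 difference was not tested. Gclc, the catalytic subunit of the enzyme that begins glutathione synthesis, measured 8.67, 8.98 and 8.65 in PD and 9.79 and 9.96 in PD.SHR4. Both congenic arrays were higher, by 2.16-fold on average (difference 1.11 ± 0.15 SE; adjusted p = 0.0457, limma). Leaving out PD array 1, PD array 3 or either PD.SHR4 array ended the call of Gclc, and no Nrf2 target was called then. Txnrd1, thioredoxin reductase, measured 0.44 ± 0.13, Ugdh 0.51 ± 0.17 and glutathione reductase Gsr 0.43 ± 0.14 (SE; adjusted p 0.216 to 0.259). The quinone reductase Nqo1 measured -0.32 ± 0.11 (SE; adjusted p = 0.294). Nfe2l2 itself measured 9.54, 9.78 and 9.36 in PD and 9.93 and 10.07 in PD.SHR4, a difference of 0.44 ± 0.16 (SE; adjusted p = 0.310).

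**Figure D3:**
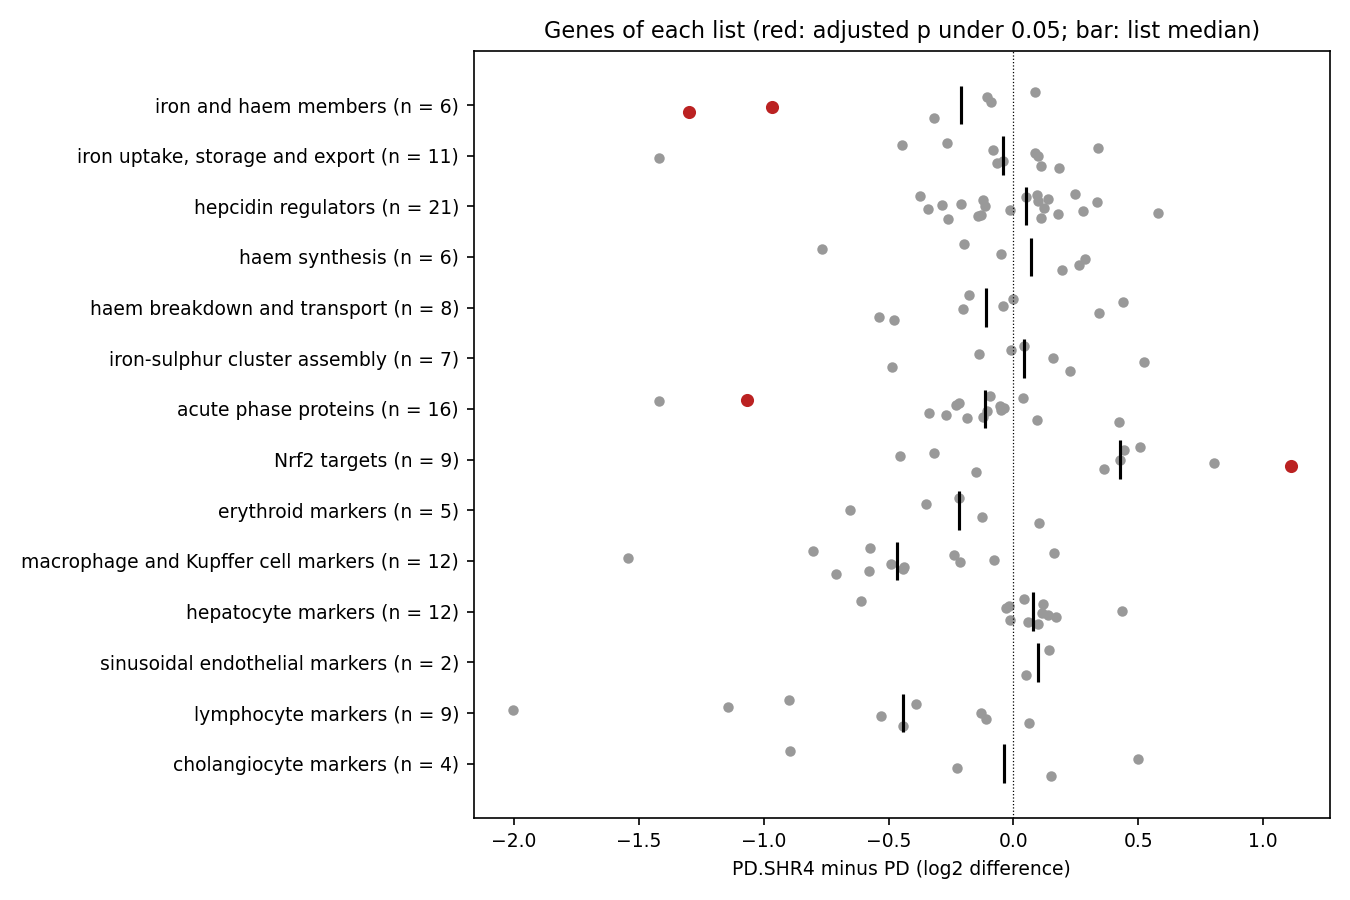
Log2 difference (PD.SHR4 minus PD) of every measured gene by list; each point is a gene, red points have adjusted p under 0.05 (limma), bars are list medians and n is the number of genes measured. The 4 red genes are Hamp and Hmox1 among the members, Orm1 among acute phase proteins and Gclc among Nrf2 targets, and most macrophage markers lie left of 0.

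Liver tissue holds several cell types, and markers of them were read beside these results. The lists were set by gene name. Whether each gene is confined to its named cell type was not tested, Tyrobp, Fcgr3a and Onecut1 among them. Of 12 macrophage and Kupffer cell markers, 11 had values below 0, against 4397 of all 8797 probe sets, and the median was -0.47. None passed singly (limma), and 8 had an unadjusted p under 0.05, against 13.8% of all probe sets. The summed signal of the 12 (log2 values turned back to linear and added) was 6677 to 7687 in PD arrays and 5669 to 5692 in PD.SHR4 arrays. Tyrobp measured -0.80 ± 0.12, Fcgr3a -1.54 ± 0.26, Aif1 -0.58 ± 0.12 and Adgre1 -0.71 ± 0.16 (SE). Clec4f, the rodent Kupffer cell lectin, measured -0.079 ± 0.13, and Lyz2, the 1 marker above 0, 0.16 ± 0.12 (SE; both chosen after their values were seen). None of the 12 was below all lower quartiles. Array weights called 8 of the 12 lower (Adgre1, Tyrobp, Aif1, Vsig4, C1qa, C1qb, C1qc and Fcgr3a), against 486 of all 8797 probe sets. Tyrobp was also called lower with the intensity trend, Fcgr3a with the replicate block or without PD array 2, and both without the dimmest 25% of probe sets. In such bulk tissue fewer cells of a type and less RNA per cell cannot be told apart, and the part of macrophages in the Hmox1 difference was not tested.

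Red cell markers (5 measured, none passed, 1 at an unadjusted p under 0.05, against 13.8% of all probe sets) had a median of -0.22. Values below 0 were found in 4 of the 5. Their summed signal was 1955 to 2394 in PD and 1324 to 1608 in PD.SHR4, and it came mostly from the globin Hbb-b1, at -0.66 ± 0.16 (SE; adjusted p = 0.161, limma). The band 3 gene Slc4a1 measured -0.22 ± 0.14, the fetal-type globin Hbg1 -0.35 ± 0.28 and Gata1 -0.13 ± 0.18 (SE). Epor, the 1 red cell marker above 0, measured 0.10 ± 0.20 (SE; chosen after its value was seen). Lymphocyte markers (9 measured, none passed, 5 at an unadjusted p under 0.05, against 13.8% of all probe sets) summed to 301 to 376 in PD and 223 to 227 in PD.SHR4. Their median was -0.44, 8 of the 9 had values below 0, and Cd8b lay under each array's lower quartile. Cd4, the 1 lymphocyte marker above 0, measured 0.06 ± 0.12 (SE; chosen after its value was seen). The smallest p-values belonged to Klrk1 (-1.14 ± 0.21), Prf1 (-0.90 ± 0.16), Gzmb (-2.01 ± 0.42) and Cd8a (-0.53 ± 0.14). With array weights, which called 486 of all 8797 probe sets lower, 5 of the 9 were (these 4 and Cd3d). Under the replicate block Klrk1 and Gzmb were called lower. Hbb-b1 was called lower with array weights. Whether any of these cells bears on Hamp or Hmox1 was not tested. Klrk1, Cd8a, Cd8b and Cd4 are on chromosome 4, which carries the SHR piece, and whether that piece bears on their values was not tested.

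Hepatocyte markers (12 measured, none passed in limma, 2 at an unadjusted p under 0.05, against 13.8% of all probe sets) had a median difference of 0.077. None of the 12 was below all lower quartiles, as far as these arrays can check the labelled tissue. Their summed signal was 63599 to 67524 in PD and 68051 to 68112 in PD.SHR4. Cyp2e1 measured 0.43 ± 0.11, the tyrosine aminotransferase Tat -0.61 ± 0.21, Arg1 0.17 ± 0.11 and Ass1 0.14 ± 0.12 (SE). With array weights, Cyp2e1 was called higher and Tat lower, and Cyp2e1 was also called with the intensity trend. Cholangiocyte markers (4 measured, none passed, 2 at an unadjusted p under 0.05, against 13.8% of all probe sets) had a median of -0.039. Of the 4, 2 had values below 0 and 2 above, so the list had no common direction. Krt19 measured 0.50 ± 0.18, Onecut1 -0.89 ± 0.19, Epcam -0.23 ± 0.22 and Anxa4 0.15 ± 0.20 (SE), and array weights called Krt19 higher and Onecut1 lower. Sinusoidal endothelial cells, a source of Bmp2 and Bmp6 in mouse liver, had 2 measured markers, Fcgr2b at 0.049 ± 0.12 and Flt4 at 0.14 ± 0.12, with no call and none at an unadjusted p under 0.05.

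The array pattern of Hamp and Hmox1 was compared with all other probe sets of 1 symbol by the root mean square difference of their standardised values over the 5 arrays, where 0 means the same shape whatever its size. Hmox1 was most like Orm1 (0.038), then Il18bp, the interleukin 18 binding protein (0.058), and Prr13 (0.062). Il18bp measured 8.67, 8.47 and 8.78 in PD and 7.56 and 7.37 in PD.SHR4. Hamp was most like Or1e31 (0.042), Tbc1d20 (0.057) and Ptprs (0.091), whose own differences were -0.59 ± 0.12, -0.18 ± 0.11 and -0.49 ± 0.12 (SE). Or1e31, an olfactory receptor gene, read 1.77 to 2.48, under the lower quartile of each of the 5 arrays, so its signal is not shown to be above background. Between Hamp and Hmox1 the value was 0.183, and 54 probe sets were nearer to Hamp and 70 nearer to Hmox1. With 5 arrays many probe sets share a shape, and these likenesses are descriptions only.

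**Figure D4:**
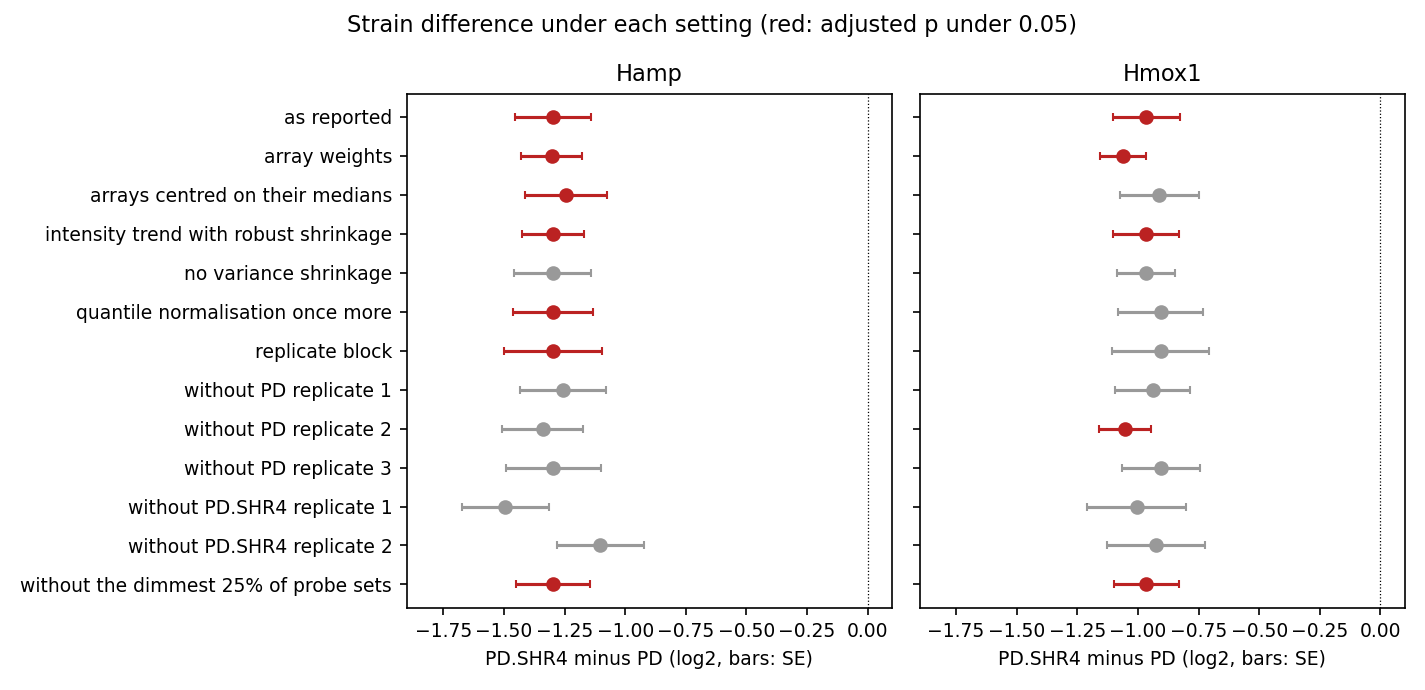
Log2 difference (PD.SHR4 minus PD) of Hamp and Hmox1 as reported and under 12 alternative fits, with the SE as bars; red marks adjusted p under 0.05. The values lie between -1.49 and -1.10 for Hamp and between -1.06 and -0.90 for Hmox1, while 6 and 4 of the 12 fits pass the threshold.

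Over the 12 alternative fits Hamp kept a difference of -1.49 to -1.10 and passed in 6 (adjusted p 0.00642 to 0.329, limma), and Hmox1 kept -1.06 to -0.90 and passed in 4 (adjusted p 0.00485 to 0.378). Neither gene's arrays overlapped between strains, so its direction could not turn when an array was left out. The replicate block and the fit without PD array 3 give the same differences, so they are not separate estimates.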

How the data were processed

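The deposited table has a value for each of 8797 probe sets on each of 5 arrays. Per the labels, the authors computed log2 expression with RMA in Expression Console for core genes. RMA and Partek are listed in the submitters' processing notes. Tool versions, annotation release and genome build: not given in the sources used here. There are no detection calls, so a low value is not called absent. Precision is limited by the number of arrays.

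GEO's platform annotation gave 7603 probe sets 1 symbol, 409 several and 785 none, and 7584 gene IDs matched RefSeq (GRCr8). The brightest probe set stood for a gene with several. The test was limma 3.58.1 under R 4.3.3 (lmFit, eBayes, two-sided, no covariate, all arrays), tested on simulated data. Members, lists, motifs and tests were chosen with earlier results of these data known. Named genes were all measured members, each list's called genes and up to 4 others by smallest p, and the 3 nearest patterns of Hamp and Hmox1. Alternatives were each array left out, a replicate block, other shrinkage, no dim probe sets, other normalisations, array weights and a fold limit.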

Additional observations from a re-analysis of the deposited data

How the results depend on the processing

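The table-wide count of 82 changed probe sets was 819 with array weights, 151 with an intensity trend and robust shrinkage, 2 with no variance shrinkage, 163 with the replicate block, 149 without the dimmest 25% of probe sets, and 0 to 55 with 1 array left out. The members' count of 2 was 0 to 1 with 1 array left out, 1 after median centring, a second quantile normalisation or the replicate block, and 0 with no variance shrinkage. With no variance shrinkage neither Hamp (-1.30) nor Hmox1 (-0.97) passed, and their differences cannot change in that fit. With 1 array left out Hamp ranged from -1.49 to -1.10 and Hmox1 from -1.05 to -0.90. Hmox1 missed the threshold at -0.91 after median centring, -0.91 after quantile normalisation and -0.90 under the replicate block. PD.SHR4 has no replicate 3, so the block takes up PD array 3. The differences under the block therefore equal those without PD array 3, -0.90 for Hmox1 and -1.30 for Hamp. Why Hmox1 missed the threshold after median centring and quantile normalisation was not tested. Cp passed with array weights alone, at -0.35. No member reversed. Hpx, Hp and Slc40a1 passed in no fit.

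Array weights called 2 iron transport genes (Slc39a8 and Lcn2, lower) and 2 hepcidin regulators (Il6r and Creb3l3, higher). In the haem lists they called Tspo lower (synthesis list) and Nfe2l2 higher (breakdown and transport list). They called 2 acute phase genes (Orm1 and Lcn2, lower) and 5 Nrf2 targets (Gclc, Gclm, Gsr, Txnrd1 and Ugdh, higher). They also called 8 macrophage markers, 5 lymphocyte markers, Hbb-b1, Tat and Onecut1 lower and Cyp2e1 and Krt19 higher. Tspo was also the 1 call of the haem synthesis list with the intensity trend, a second quantile normalisation or no dim probe sets. Acute phase and Nrf2 counts were 0 with no variance shrinkage, and the acute phase count was 0 after median centring. With 1 array left out, 0 to 1 iron transport genes, 0 to 2 acute phase genes and 0 to 1 Nrf2 targets were called. No label pairs the arrays by replicate number. Deviations of same-numbered arrays correlated at 0.050 and 0.082, but those of the 2 PD.SHR4 arrays mirror each other, so this cannot settle pairing. The block is given for its effect on the counts only. Where 1 PD.SHR4 array was left out, the lone array was assumed to vary like PD. A fold limit of 1.5 changed no count, and averaging probe sets was not run, since no member had several.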

Other observations

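The PD arrays differed widely in a few genes although the labels describe cDNA pooled per strain. Me1, the cytosolic malic enzyme that supplies NADPH for lipogenesis, measured 5.90, 8.30 and 6.77 in PD and 6.29 and 6.78 in PD.SHR4, a spread of 2.40 within PD. A2m, alpha-2-macroglobulin, an acute phase protein of rats, measured 7.85, 6.11 and 7.26 in PD and 8.00 and 6.99 in PD.SHR4. Lbp, the lipopolysaccharide binding protein, measured 11.7, 10.9 and 11.4 in PD and 11.1 in both PD.SHR4 arrays. PD array 2 was the lowest PD array in 10 of the 16 acute phase genes and the highest in 3, among them Crp. It was the lowest in 5 of the 6 measured iron and haem genes, Cp being the exception. Me1, A2m and Lbp were chosen after their values were seen.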
